A study of Mus musculus with 6 samples.

Results

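The 8 genes described here together mark the spiny projection neurons of the striatum, the principal neurons of that region. They were chosen by name: the dopamine receptor genes Drd1 and Drd2, the adenosine receptor gene Adora2a, the adenylyl cyclase gene Adcy5, the phosphatase inhibitor gene Ppp1r1b, the regulator of G-protein signalling Rgs9, the phosphodiesterase gene Pde10a and the transcription factor gene Foxp1. All 8 of 8 were listed in every table, out of 25696 mouse gene names in the series.

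Spiny neurons receive dopamine and use it to set the strength of cortical input. Direct-pathway cells carry the D1 receptor, which raises cyclic AMP through Adcy5, and indirect-pathway cells carry the D2 receptor, which lowers it, together with the adenosine receptor, which raises it. Rgs9 shortens G-protein signals, Pde10a degrades cyclic nucleotides, Ppp1r1b turns the cyclic AMP signal into inhibition of protein phosphatase 1, and Foxp1 takes part in spiny neuron development. Of these, Pde10a, Adcy5 and Foxp1 are also expressed in other brain cells, and counts of any single member do not by themselves mark a spiny neuron.

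The series profiled nuclei from brains of C57BL/6J mice aged 8 to 12 weeks, and the labels call the tissue cortex. Formalin-fixed, paraffin-embedded (FFPE) blocks were cut into scrolls of 50 µm, and the wax was removed with mineral oil and heat, with xylene and heat, or with xylene at room temperature. Pools of nuclei were sequenced by SCRB-seq, which counts tags at transcript ends, and by SMART-Seq2, which covers whole transcripts, and single nuclei were sequenced by SMART-Seq2 in plates and by a 10x droplet run. Frozen wells and frozen nuclei are known only from the annotation deposited with the tables, which places frozen tissue in hemisphere R and FFPE tissue in hemisphere L. No agent or altered allele is named for any group. Sex and the animal behind each well are not given, and each assay is 1 deposited sample, so p-values measure only the spread between wells, which may be technical.

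SCRB-seq held 64 wells, 16 per wax removal method and 16 frozen, of which 8 in each group held 10 nuclei and 8 held 100. Their mouse totals ran from 7512 to 167144 counts, with medians of 26385.5 for mineral oil, 67425.5 for heated xylene, 64960 for room-temperature xylene and 58642.5 for frozen. The bulk SMART-Seq2 table held 12 wells, 1 each of 100, 50 and 10 nuclei per method and frozen, with 270363 to 942966 counts. In SCRB-seq each combination of method and nuclei number was 1 library pool, and pool and method cannot be told apart. Markers of other cell types differed between the tissues as well. The summed level of 6 cerebellar granule neuron markers was a median of 1287 CPM (counts scaled to the well's total) in FFPE SCRB-seq wells (261 to 5121; counts for 6 of 6) and 0 in frozen wells (0 to 54.1; Gabra6 and Cbln3 at 0). The summed level of 7 cortical excitatory markers was a median of 337 CPM in FFPE wells (95.8 to 1140) and 854 in frozen wells (525 to 1116). Medians were higher in FFPE wells for 7 interneuron markers (703 CPM, 0 to 1903, against 192, 48.5 to 511), 5 oligodendrocyte markers (1142, 0 to 13209, against 362, 64.7 to 770) and 5 astrocyte markers (1253, 288 to 5843, against 517, 186 to 898), each list with counts for all its markers in both tissues. Mineral oil wells alone lay below the frozen median for interneuron (89.2 CPM) and oligodendrocyte markers (182 CPM), but not for astrocyte markers (1315 CPM). In plate nuclei the pooled granule level was 984 CPM in FFPE (0 to 11867 by nucleus) and 23.0 in frozen nuclei (0 to 502), and that of 3 choroid plexus markers 1436 (0 to 184295) and 182 (0 to 36239). The part of these differences in the results that follow was not tested, and in pools of nuclei fewer cells of a type and less RNA per cell cannot be told apart.

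The gene models differed widely in size. On GRCm38 with GENCODE M21, Drd1 (ENSMUSG00000021478) lies at chr13:54051183-54055705 on the minus strand and spans 4.52 kb, Drd2 at chr9:49340627-49408177 on the plus strand and spans 67.6 kb, and Adora2a at chr10:75316877-75334784 on the plus strand and spans 17.9 kb. Adcy5 lies at chr16:35154877-35305738 (plus, 151 kb), Ppp1r1b at chr11:98348404-98357796 (plus, 9.39 kb) and Rgs9 at chr11:109225355-109298129 (minus, 72.8 kb). The longest are Pde10a at chr17:8525372-8986648 (plus, 461 kb) and Foxp1 at chr6:98925338-99522721 (minus, 597 kb). Ppp1r1b, Pde10a, Adcy5 and Foxp1 overlap other annotated genes, 1700003D09Rik in the case of Ppp1r1b. The sources used here do not say whether strand was used in counting, so reads in those overlaps are uncertain.

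The promoter windows of Drd1, Drd2 and Rgs9 are shown because these 3 genes had nearly all or most of their SCRB-seq level in frozen wells. Each is the stretch before the RefSeq start (GRCm38.p6), printed along the gene's own strand; capitals mark GC boxes, GGGCGG on either strand (CCGCCC when on the other). The windows are chr13:54055706-54055908 for Drd1 (203 of 250 bases; the other 47 lie in an annotated exon), chr9:49340153-49340402 for Drd2 and chr11:109298182-109298431 for Rgs9.
Drd1: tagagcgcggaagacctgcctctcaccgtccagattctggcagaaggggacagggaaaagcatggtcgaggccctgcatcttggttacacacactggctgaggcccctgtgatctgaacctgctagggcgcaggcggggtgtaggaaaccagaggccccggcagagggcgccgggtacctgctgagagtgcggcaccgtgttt
Drd2: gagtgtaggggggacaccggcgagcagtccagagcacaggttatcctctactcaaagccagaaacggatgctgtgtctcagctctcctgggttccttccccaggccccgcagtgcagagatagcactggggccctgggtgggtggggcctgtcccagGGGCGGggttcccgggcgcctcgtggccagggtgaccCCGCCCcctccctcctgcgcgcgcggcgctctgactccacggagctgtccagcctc
Rgs9: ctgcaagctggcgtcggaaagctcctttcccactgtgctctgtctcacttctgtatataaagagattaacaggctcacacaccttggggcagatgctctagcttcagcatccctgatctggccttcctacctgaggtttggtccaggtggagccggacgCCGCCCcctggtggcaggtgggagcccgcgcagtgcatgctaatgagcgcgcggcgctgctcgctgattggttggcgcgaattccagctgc
Over the full 250 bases, Drd1 had a GC content of 64% and no GC box, Drd2 had 68.8% and 2 GC boxes, and Rgs9 had 59.6% and 1 GC box. RefSeq windows were matched for 6 of the 8 genes. A GC box stood in 5 of the 6, against 32.7% of 32851 mouse promoter windows of the same length. The cyclic AMP response element TGACGTCA and its core TGACG, which lies inside it, were looked for on both strands and stood in 0 of the 6 windows, against 1.55% and 17.8% of all windows. A match is a description of the letters only.

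The receptor genes were detected almost only in frozen SCRB-seq wells. Drd1 had 14 counts in 5 of 16 frozen wells, at 33.9, 27.7, 31.8 and 16.3 CPM in 4 wells of 100 nuclei and 79.8 CPM in 1 well of 10, and 0 counts in 48 FFPE wells. Set against a floor of 3 counts over all FFPE wells, its pooled level was 13.0-fold higher in frozen wells. The exact counting interval of the ratio has a lower limit of 9.27. Drd2 had 26 counts in 5 frozen wells, at 91.7, 6.91 and 29.9 CPM in wells of 100 nuclei and 40.4 and 194 CPM in wells of 10. In FFPE wells Drd2 had 1 count, in a heated xylene well (17.7 CPM), so the pooled ratio of frozen to FFPE was 72.6 with a counting interval of 11.9 to 2978. That interval treats each count as independent, while 12 of the 26 frozen Drd2 counts lay in 1 well of 10 nuclei. Adora2a had 2 counts, 1 in each of 2 frozen wells (15.3 and 5.98 CPM), both of which also held Drd2 counts. Detection was sparse even in frozen wells, since 11 of 16 had no Drd1 and 11 of 16 had no Drd2.

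**Figure D1:**
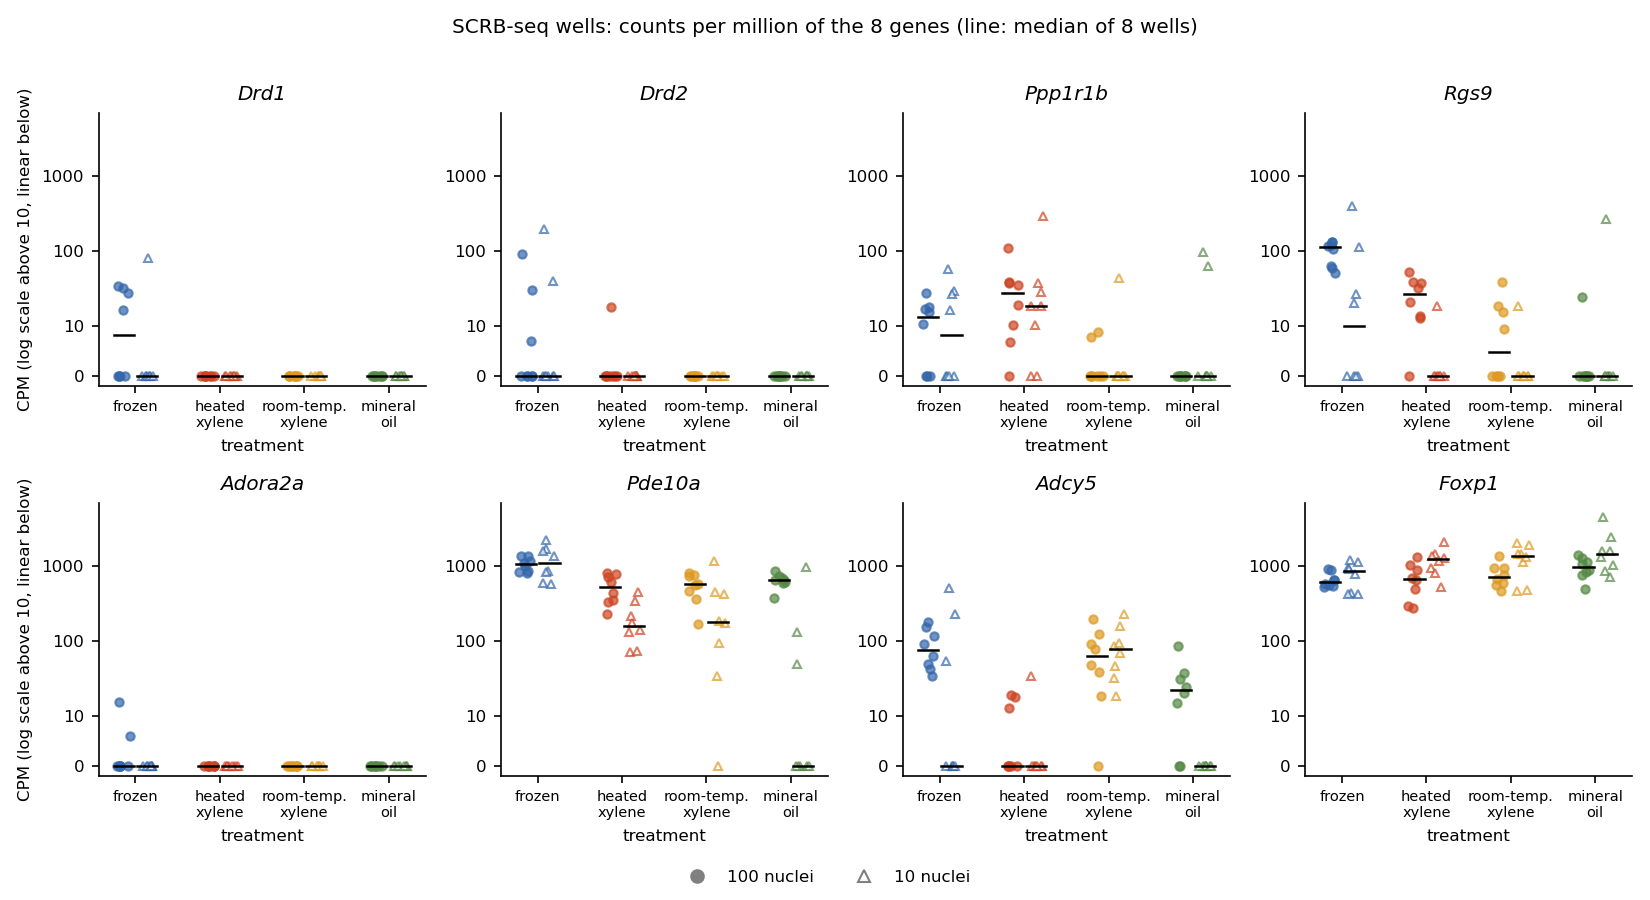
SCRB-seq level of each of the 8 genes in every well (CPM), by wax removal method and frozen, with wells of 10 and 100 nuclei drawn apart and lines at the median of 8 wells; the axis is logarithmic above 10 CPM and linear below. Drd1 and Adora2a points lie above 0 only in frozen wells, Pde10a is lower in most FFPE wells, and Foxp1 is present in all 64 wells.

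In SMART-Seq2 pools the receptors were not separated in this way. Drd1 stood at 17.1, 18.5 and 0 CPM in the frozen wells of 100, 50 and 10 nuclei. In FFPE wells it was 28.2 CPM in the room-temperature xylene well of 50 nuclei, 24.2 CPM in the mineral oil well of 100 nuclei and 0 in the other 7, so the groups overlapped and the pooled ratio was 1.33 (0.643 to 2.58). Drd2 was detected in 1 frozen well (8.57 CPM, 100 nuclei) and 1 FFPE well (2.55 CPM, heated xylene, 50 nuclei), a pooled ratio of 6.94 with an interval of 0.995 to 76.7. Adora2a had 1 count in each of 2 frozen wells (2.14 and 3.70 CPM) and 0 in 9 FFPE wells. All 3 receptor genes fell under the filter on low counts and were not tested there. With no filter, edgeR gave Drd1 a log2 difference of FFPE minus frozen of -2.43 (SE 1.47, adjusted p = 0.485). That is a larger difference than the pooled ratio of 1.33 gives, and it was not called.

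Adcy5, which makes cyclic AMP, was lower in every FFPE SMART-Seq2 well than in every frozen well. Frozen wells of 100, 50 and 10 nuclei stood at 189, 207 and 143 CPM. FFPE wells, in the same order, stood at 33.1, 76.5 and 35.0 CPM after heated xylene, at 85.6, 58.2 and 32.5 CPM after room-temperature xylene, and at 5.38, 61.5 and 1.95 CPM after mineral oil. Such a separation was seen in 4.96% of the 9092 genes tested, and the opposite one in 3.72%. The fitted log2 difference was -2.43 (SE 0.78) and missed the threshold, with an adjusted p of 0.0950 by edgeR's quasi-likelihood test; it passed by DESeq2's Wald test (adjusted p = 0.0263) and without the mineral oil well of 50 nuclei (-3.24, adjusted p = 0.0145), and adjusted p over all alternatives ran from 0.0145 to 0.478.

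In SCRB-seq, Adcy5 had 87 counts in 11 of 16 frozen wells and 111 counts in 25 of 48 FFPE wells, a pooled ratio of 2.19 (1.63 to 2.93). The FFPE counts were uneven over methods. Room-temperature xylene held 90 counts in 15 of 16 wells, with a lowest, median and highest level of 0, 73.8 and 227 CPM. Mineral oil held 17 counts in 6 wells and heated xylene 4 counts in 4 wells. Among wells of 10 nuclei, Adcy5 was found in 8 of 8 room-temperature xylene wells, 1 of 8 heated xylene wells and 0 of 8 mineral oil wells. The room-temperature xylene wells thus overlapped the frozen wells (median 51.5 CPM, highest 511), while most wells of the other methods were at 0.

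Ppp1r1b was spread over both tissues and gave no call. It had 14 counts in 9 of 16 frozen SCRB-seq wells (median 12.9 CPM, highest 56.8) and 54 counts in 18 of 48 FFPE wells, a pooled ratio of frozen to FFPE of 0.724 with an interval of 0.372 to 1.32 that includes 1. Heated xylene gave 49 of those counts, in 13 of 16 wells, with 23 in 1 well of 10 nuclei (294 CPM), while mineral oil gave 2 and room-temperature xylene 3. In SMART-Seq2 the frozen wells of 100, 50 and 10 nuclei held 12.9, 14.8 and 38.2 CPM, and FFPE wells ran from 0 to 49.4 CPM with counts in 5 of 9. The groups overlapped, and the log2 difference was -0.84 (SE 1.51, adjusted p = 0.884).

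Rgs9 was found in every frozen SCRB-seq well of 100 nuclei. Those 8 wells ran from 50.8 to 134 CPM with a median of 112, and the frozen wells of 10 nuclei from 0 to 397 CPM. FFPE wells of 100 nuclei ran from 0 to 53.0 CPM with a median of 4.71, and the highest FFPE well, of 10 nuclei after mineral oil, stood at 271 CPM on 3 counts. Pooled, Rgs9 had 87 counts in frozen and 30 in FFPE wells, a ratio of 8.10 (5.29 to 12.7). In SMART-Seq2 the frozen wells of 100, 50 and 10 nuclei stood at 131, 55.5 and 22.4 CPM and the FFPE wells from 0 to 66.3, with overlap. The log2 difference was -2.30 (SE 1.16) and did not pass (adjusted p = 0.370).

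Of the 2 members past the filter on low counts in SCRB-seq, Pde10a was lower in FFPE wells. The lowest, median and highest levels were 584, 1064 and 2215 CPM in frozen wells, 0, 487 and 975 after mineral oil, 72.1, 337 and 823 after heated xylene, and 0, 445 and 1187 after room-temperature xylene. FFPE wells of 10 nuclei had a median of 132 CPM and those of 100 nuclei 619 CPM, so the median was lower in the smaller pools, and the highest FFPE wells overlapped the frozen range. Pde10a fell by 1.48 on the log2 scale (SE 0.31, 2.80-fold lower, adjusted p = 2.46e-05, edgeR), a call kept under 9 of 9 alternatives (log2 -2.48 to -0.97).

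Foxp1 had counts in all 64 SCRB-seq wells. Its lowest, median and highest levels were 423, 652 and 1229 CPM in frozen wells, 497, 1113 and 4526 after mineral oil, 278, 915 and 2107 after heated xylene, and 465, 940 and 2046 after room-temperature xylene, with wide overlap. It was 1.52-fold higher in FFPE wells with the TMM scaling (log2 0.60, SE 0.23, adjusted p = 0.0217). The direction rests on the scaling: with DESeq2 size factors the value was -0.08 (adjusted p = 0.737), and the median over all genes moved from 0.00 to -0.58. Under the TMM scaling 447 genes were higher and 410 lower in FFPE (52.2% of calls higher), and with size factors 309 and 674 (31.4%).

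These were the only 2 of the 8 genes past the filter on low counts in SCRB-seq, and both were called, where 58% of 1478 tested genes were called, 30.2% higher and 27.7% lower in FFPE. With a background that high, the count says little about the members. All FFPE wells lay under all frozen wells in 1.69% of tested genes and over them in 1.29%, and neither Pde10a nor Foxp1 was among these. With no filter, 5 of the 8 were called (Drd1, Drd2, Rgs9, Adcy5 and Pde10a, all lower in FFPE) where 25.2% of 19006 genes were called, with adjusted p of 9.18e-08 for Drd1, 9.62e-09 for Drd2, 2.34e-06 for Rgs9, 0.000400 for Adcy5 and 0.000460 for Pde10a. Adora2a (adjusted p = 0.0783), Foxp1 (0.0566) and Ppp1r1b (0.486) did not pass there. The filter had left out Drd1 and Drd2 for low counts. Drd1 had 14 counts and Drd2 26 in frozen wells, 12 of the latter in 1 well, against 0 and 1 in FFPE wells. At such counts the spread between wells is poorly estimated, so the no-filter adjusted p-values of these genes are a description only. The test of whether the FFPE difference varied with the number of nuclei called 18.9% of genes and neither Pde10a (log2 -1.44, adjusted p = 0.0670) nor Foxp1 (0.69, adjusted p = 0.218).

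**Figure D2:**
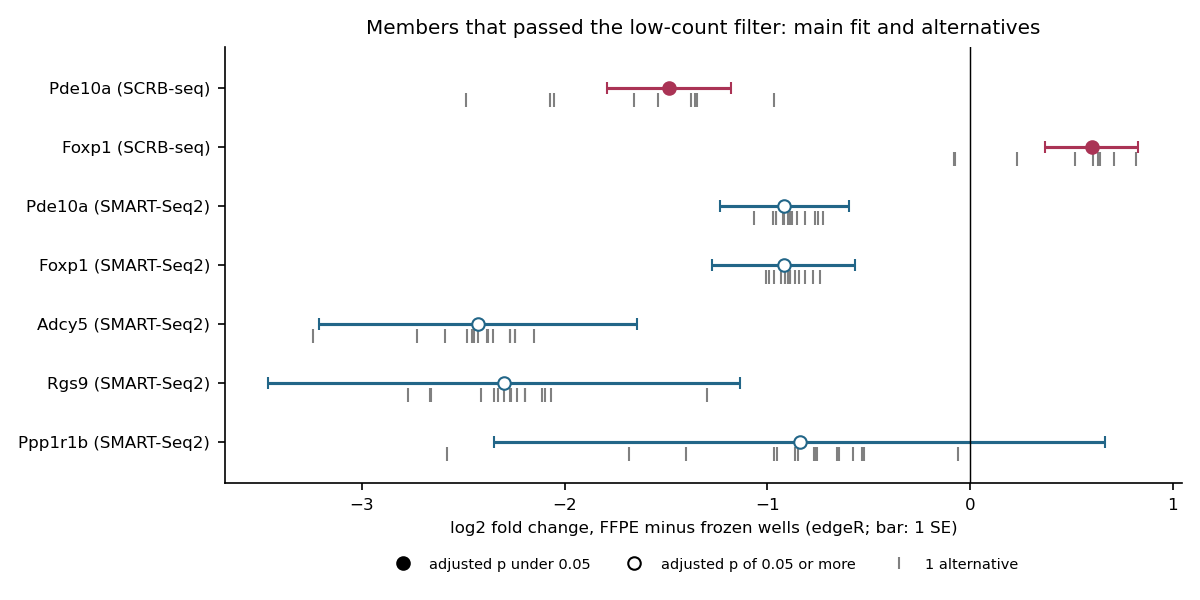
Fitted log2 difference of FFPE minus frozen wells for each tested gene of the 8, with its standard error, in SCRB-seq and bulk SMART-Seq2; filled points passed the adjusted threshold and grey ticks are the alternatives. Pde10a lies below 0 in both assays (-1.48 and -0.92), whereas Foxp1 lies at 0.60 in SCRB-seq and -0.92 in SMART-Seq2.

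In SMART-Seq2, 5 of the 8 genes passed the filter and 0 were called by edgeR, where 4.09% of 9092 genes were called, 2.64% lower and 1.45% higher in FFPE (35.5% of calls higher, and 52.9% by DESeq2's Wald test). With no filter the count was also 0 of 8, where 2.94% of 17240 genes were called. At an unadjusted p under 0.05 the count was 3 of the 5 members and 1346 of all genes, and DESeq2's Wald test called 1 member, where it called 7.05% of all genes. Frozen Pde10a stood at 2205, 1727 and 2268 CPM in the wells of 100, 50 and 10 nuclei and FFPE wells at 616 to 2077, a log2 difference of -0.92 (SE 0.32, adjusted p = 0.125; 0.0122 when the highest FFPE well, room-temperature xylene with 10 nuclei, was left out). Frozen Foxp1 stood at 795, 1062 and 823 CPM and FFPE wells at 363 to 830, a log2 difference of -0.92 (SE 0.35, adjusted p = 0.178). All 5 differences were negative, with a median of -0.92 against -0.13 over all genes. Foxp1 therefore had opposite signs in the 2 assays under the TMM scaling, and the difference between assays was not tested.

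**Figure D3:**
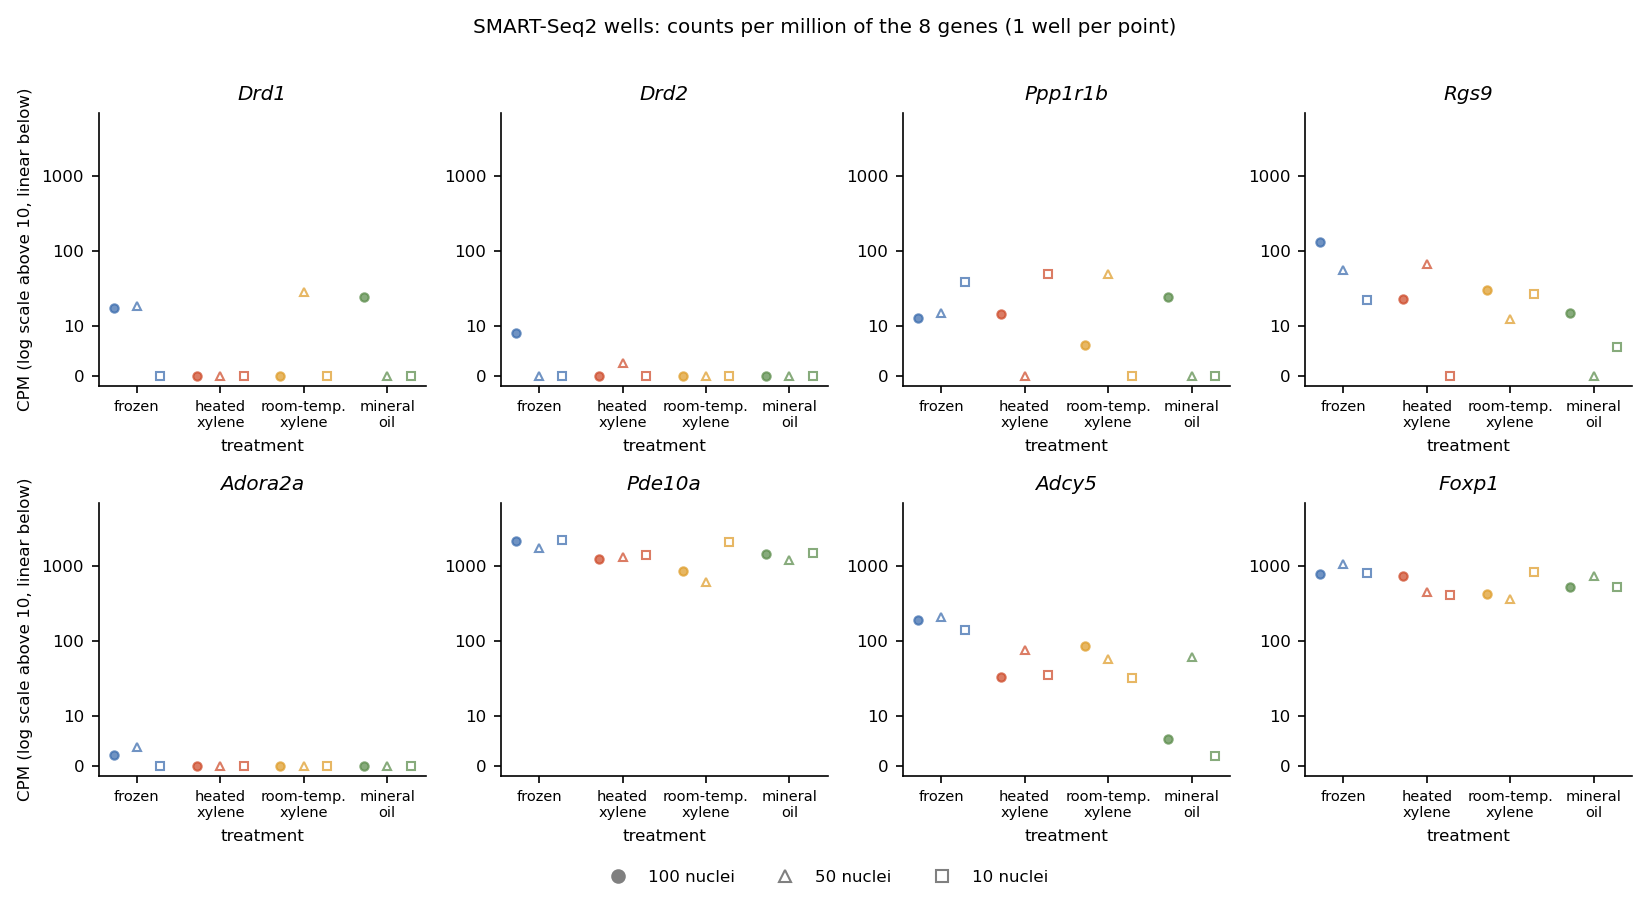
Bulk SMART-Seq2 level of each of the 8 genes in each of the 12 wells (CPM), by wax removal method and frozen, with the number of nuclei marked. The 3 frozen Adcy5 points (143 to 207 CPM) lie above all 9 FFPE points (1.95 to 85.6), and Adora2a is at 0 in every FFPE well.

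Per kilobase of exon, the mean SMART-Seq2 level in frozen wells was highest for Pde10a (161 CPM per kb), followed by Foxp1 (64.9), Adcy5 (24.97), Rgs9 (10.9), Ppp1r1b (7.49), Drd1 (3.27), Drd2 (1.12) and Adora2a (0.636). In FFPE wells the order was Pde10a (101), Foxp1 (40.6), Adcy5 (6.03), Ppp1r1b (5.42), Rgs9 (3.12), Drd1 (1.61), Drd2 (0.111) and Adora2a (0). The frozen wells did not overlap between Pde10a, Foxp1 and Adcy5, whereas from Adcy5 downwards each gene overlapped its neighbour in that order. Per kilobase of the whole gene span the frozen order was different: Pde10a (4.48 CPM per kb), Drd1 (2.63), Ppp1r1b (2.34), Foxp1 (1.49), Adcy5 (1.19), Rgs9 (0.956), Adora2a (0.109) and Drd2 (0.0423). Pde10a led on both scales, while Drd1 and Ppp1r1b moved up and Foxp1 and Adcy5 down. On this scale the frozen wells of each gene overlapped those of its neighbour, Pde10a (3.74 to 4.92) and Drd1 (0 to 4.09) included, except between Rgs9 (lowest 0.308) and Adora2a (highest 0.207). Nuclear RNA holds unspliced transcripts, and for the bulk tables the sources used here do not say whether reads in introns were counted.

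The 3 wax removal methods did not separate the 2 testable genes. In SCRB-seq, 0 of 2 members were called in any pair, where 8.52% of 1080 genes were called for mineral oil against heated xylene, 1.94% for heated against room-temperature xylene and 10.3% for mineral oil against room-temperature xylene; at an unadjusted p under 0.05 the count of members was also 0. The log2 differences, in that order of pairs, were 0.15, -0.30 and -0.15 for Pde10a and 0.40, -0.19 and 0.21 for Foxp1. With no filter on low counts, Ppp1r1b was lower after mineral oil than after heated xylene (-3.04, adjusted p = 0.00325, 18.8% of genes called) and higher after heated than after room-temperature xylene (3.30, adjusted p = 0.000587, 15.9% called). Adcy5 went the other way, lower after heated than after room-temperature xylene (-3.88, adjusted p = 3.50e-05) and lower after mineral oil than after room-temperature xylene (-2.19, adjusted p = 0.0113, 16.1% called). Ppp1r1b and Adcy5 had both fallen under the filter on low counts, so the spread behind these adjusted p-values is poorly estimated. In SMART-Seq2, 0 of 8372 genes were called for any pair by edgeR (0%; 314, 199 and 379 at an unadjusted p under 0.05, and 20, 1 and 26 by DESeq2's Wald test, none of them a member).

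The other spiny neuron genes gave a mixed picture. Of 35 such genes, 33 were in the SCRB-seq table and 5 were tested, of which 3 fell and 1 rose in FFPE, where 27.7% of all tested genes fell and 30.2% rose, with a median log2 difference of -1.56 against 0.00 over all genes. The 3 that fell belong to signalling: Arpp21, a phosphoprotein regulated by cyclic AMP (-1.56, adjusted p = 1.01e-07; mean 497 CPM in FFPE and 1443 in frozen wells), Rgs7bp, a partner protein of Rgs9 (-1.59, adjusted p = 0.000102; 115 and 363 CPM), and Pde7b, a phosphodiesterase (-2.93, adjusted p = 2.10e-10; 62.4 and 380 CPM). The gene that rose was Ebf1, a transcription factor also expressed by vascular cells (2.31, adjusted p = 3.05e-05; 161 and 33.1 CPM). Meis2, another transcription factor, did not pass (0.18, adjusted p = 0.680), though it was lower after mineral oil than after heated xylene (-2.80, adjusted p = 6.15e-05) or room-temperature xylene (-3.30, adjusted p = 2.61e-06). Cell type markers also differed between methods. Summed over 7 interneuron markers, the lowest, median and highest wells held 0, 89.2 and 500.2 CPM after mineral oil (Gad2, Slc32a1, Sst and Vip at 0), 366.6, 943 and 1903 after heated xylene (Sst at 0), and 438, 845 and 1670 after room-temperature xylene (Vip at 0). Summed over 5 oligodendrocyte markers they held 0, 182 and 1462 CPM (Mag at 0), 828.9, 1953 and 4954, and 398, 1845 and 13209 in the same order of methods; the part of these markers in the method differences was not tested. Without the mineral oil wells the Meis2 difference from frozen was 1.31 (adjusted p = 0.000217). None of the 3 peptide genes and none of the 4 channel and other genes passed the filter.

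In SMART-Seq2, 21 of the 34 listed genes were tested, 15 had a negative difference, as did 53.9% of all 9092 genes, and 2 fell and 0 rose, where 2.64% fell and 1.45% rose; the median was -0.88 against -0.13 over all genes. Arpp21 fell by 1.55 on the log2 scale (adjusted p = 0.00721; 1108 CPM in FFPE and 2634 in frozen wells), and Ptpn5, a tyrosine phosphatase enriched in the striatum, fell by 3.89 (adjusted p = 0.0226; 22.1 and 220 CPM). Arpp21 was lost without the frozen well of 100 nuclei (adjusted p = 0.0514) or of 10 nuclei (0.112), and Ptpn5 without any of the 3 frozen wells (0.131, 0.0869 and 0.205). Ebf1 (1.48, adjusted p = 0.322) and Meis2 (0.92, adjusted p = 0.378) had positive differences that did not pass. Cerebellar granule markers moved with these contrasts here too, at 1037 to 3354 CPM in FFPE wells and 0 to 3.70 in frozen wells (Gabra6, Cbln1, Cbln3 and Zic1 at 0). The 7 cortical excitatory markers moved the other way with no overlap, at 10.2 to 466.03 CPM in FFPE and 784 to 1587 in frozen wells. Medians of 7 interneuron markers were 1194 CPM in FFPE (486 to 2590) and 184 in frozen wells (5.61 to 303; Slc32a1 and Pvalb at 0), and of 5 oligodendrocyte markers 1299 (41.0 to 2168) and 118 (66.2 to 300.004). The part of these markers was not tested.

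Single nuclei in plates gave shares rather than tests, since the labels list no frozen plate sample and do not say whether the FFPE batches came from separate animals. The whole-series table held 143 FFPE nuclei (median 47887 counts and 1635 genes) and 137 frozen nuclei (median 255329 counts and 4382 genes), and a separate FFPE batch 1 held 98 nuclei (median 180584 counts and 1603 genes). The 134 nuclei of FFPE batch 2 are in the whole-series table with the same values, and the batch 3 table held 0 nuclei. Many nuclei had a close match in another plate: the best correlation (log2 of CPM + 1 over genes) with a nucleus of another plate had a median of 0.902 in frozen and 0.775 in whole-series FFPE nuclei, against 0.269 in batch 1. A match of 0.8 or more in another plate was found for 98 of 137 frozen, 61 of 143 FFPE and 0 of 98 batch 1 nuclei. Whether such nuclei are separate nuclei was not tested, and shares are also given with 1 nucleus kept per set of profiles linked at 0.8 or more (107 FFPE and 73 frozen sets) or at 0.6 or more (75 and 42 sets, the largest frozen set holding 63 nuclei); both were added after seeing the data.

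The share of nuclei with a count was higher in frozen nuclei for 8 of 8 genes, as it was for 92.3% of the 16184 genes with at least 1 CPM in either tissue. Drd1 was found in 2.80% of FFPE nuclei (4 of 143) and 21.2% of frozen nuclei (29 of 137; exact binomial interval 14.7% to 29.0%). The shares were 3.50% and 10.2% for Drd2, 2.10% and 12.4% for Adora2a, 32.2% and 66.4% for Adcy5, and 31.5% and 56.9% for Ppp1r1b. They were 24.5% and 48.9% for Rgs9, 81.1% and 88.3% for Pde10a, and 62.9% and 90.5% for Foxp1. In the whole-series table, all FFPE nuclei with Drd1 or Adora2a were among the 9 nuclei that are in no batch table (102136 to 4973791 counts): in the 134 nuclei of batch 2 both genes stood at 0, which allows a share of up to 2.24% on the rule of 3 counts, and Drd2 was in 2 nuclei (1.49%). Frozen nuclei were sequenced more deeply, so each nucleus was also thinned to 10000 counts (135 FFPE and 127 frozen nuclei remained). After thinning the shares were 0% and 11.02% for Drd1, 1.48% and 3.15% for Drd2, 0% and 0.787% for Adora2a, 15.6% and 47.2% for Adcy5, 21.5% and 32.3% for Ppp1r1b, 15.6% and 25.98% for Rgs9, 65.2% and 74.0% for Pde10a, and 44.4% and 75.6% for Foxp1. The frozen share stayed above the FFPE share for 8 of 8 genes, where after the same thinning it was higher for 75.5% of the 16184 genes. The median gap was 10.6 percentage points over the 8 genes and 3.15 over all genes.

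**Figure D4:**
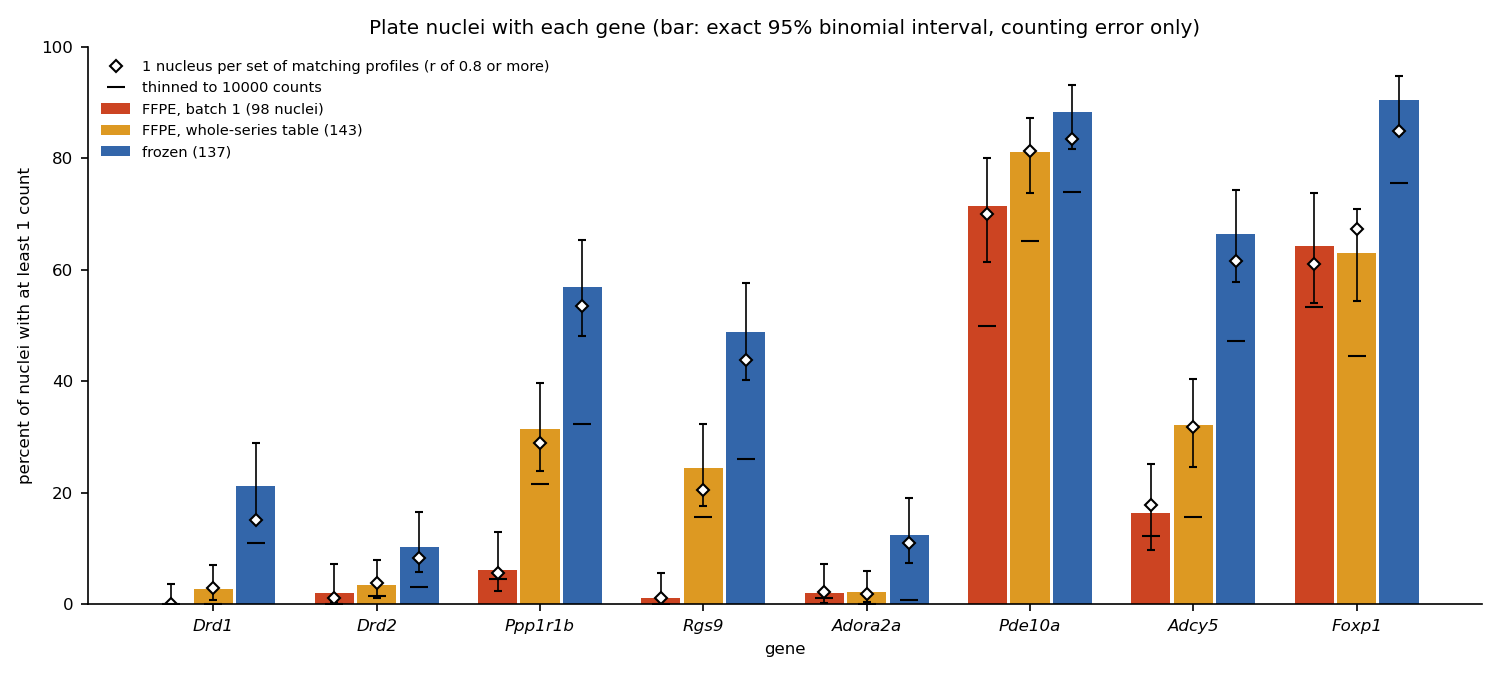
Share of plate nuclei with at least 1 count of each gene (%), in FFPE batch 1, whole-series FFPE and frozen nuclei, with exact binomial 95% intervals that cover counting error only; diamonds keep 1 nucleus per set linked at 0.8 and dashes show nuclei thinned to 10000 counts. Drd1 stands at 0% in batch 1, 2.80% in whole-series FFPE and 21.2% in frozen nuclei.

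With 1 nucleus per set linked at 0.8, the frozen share was still the higher for all 8 genes, as it was for 87.5% of the 16184 genes. Drd1 stood at 2.80% of FFPE and 15.1% of frozen sets, Drd2 at 3.74% and 8.22%, Adora2a at 1.87% and 10.96%, Ppp1r1b at 29.0% and 53.4%, Rgs9 at 20.6% and 43.8%, Pde10a at 81.3% and 83.6%, Adcy5 at 31.8% and 61.6%, and Foxp1 at 67.3% and 84.9%. Linked at 0.6 the gaps were narrower, and the frozen share was the higher for 7 of the 8 genes and for 61.3% of all genes. Drd1 stood at 3 of 75 FFPE sets and 4 of 42 frozen sets (9.52%), Drd2 at 5.33% and 7.14%, Adora2a at 2.67% and 4.76%, Ppp1r1b at 29.3% and 38.1%, and Rgs9 at 21.3% and 28.6%. Adcy5 stood at 34.7% and 42.9% and Foxp1 at 62.7% and 81.0%, while Pde10a turned to 80.0% and 76.2%. Nuclei with over 8000 genes also mattered, 28 frozen and 3 FFPE; without them Drd1 was in 1.43% of FFPE and 10.1% of frozen nuclei, Drd2 in 2.14% and 3.67%, and Adora2a in 0% and 3.67%. In FFPE batch 1, Drd1 was in 0 of 98 nuclei, which allows a share of up to 3.06% on the rule of 3 counts (3.69% by the exact binomial interval), Drd2 and Adora2a in 2.04% each (2 nuclei), Rgs9 in 1.02%, Ppp1r1b in 6.12%, Adcy5 in 16.3%, Foxp1 in 64.3% and Pde10a in 71.4%. The 2 FFPE sources thus differed most for Rgs9 and Ppp1r1b, at a median depth that was higher in batch 1.

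Levels pooled over nuclei did not follow the shares for each gene, and a few nuclei moved them. Pooled levels were 2.29 CPM in FFPE and 14.1 in frozen nuclei for Drd1, 139 and 251 for Adcy5, 100.2 and 237 for Rgs9, 562 and 950 for Pde10a, and 528 and 982 for Foxp1. They were higher in FFPE nuclei for Drd2 (32.8 and 1.40 CPM) and Ppp1r1b (419 and 214). The pooled level was higher in frozen nuclei for 6 of 8 members, against 50.2% of all genes. The FFPE Drd2 value came almost wholly from 2 nuclei of different plates with correlated profiles (r = 0.881), at 9428 CPM (309 counts) and 7900 CPM (444 counts), which had 795 and 930 genes and at most 1 other member. For Ppp1r1b, 60.1% of the 9896 FFPE counts came from 2 nuclei (r = 0.786), at 22482 CPM (3269 counts) and 13930 CPM (2680 counts). Without the 2 nuclei highest in CPM of that gene in each tissue, a comparison added after seeing the data, both directions turned: Ppp1r1b stood at 169.6 CPM in FFPE and 189 in frozen nuclei, and Drd2 at 0.893 and 1.26 CPM. For Drd2 the nuclei left out held 97.3% of the FFPE but 10.1% of the frozen counts. A frozen nucleus that stayed in held 31 of the 89 frozen Drd2 counts. Whether Drd2 turns when nuclei are taken by counts was not tested. For Drd1, 65.6% of the frozen counts came from 2 nuclei, and without the top 2 of each tissue Drd1 stood at 1.95 CPM in FFPE and 5.01 in frozen nuclei, and Rgs9 at 78.0 and 128. Without the 9 FFPE nuclei of no batch, the FFPE level was 0 CPM for Drd1, 752 for Ppp1r1b, 198 for Rgs9, 247 for Adcy5, 562 for Pde10a and 346 for Foxp1.

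Drd1 and Drd2 were also counted nucleus by nucleus. Of 137 frozen nuclei, 21 had Drd1 only, 6 had Drd2 only and 8 had both, so most of the 14 nuclei with Drd2 also held Drd1. Among the 109 with at most 8000 genes, 10 had Drd1 only, 3 had Drd2 only and 1 had both, so 7 of the 8 nuclei with both held over 8000 genes. Drd2 and Adora2a, both genes of the indirect pathway, were together in 9 frozen nuclei, all with over 8000 genes, and in 0 of the 109 others, where 4 had Drd2 only and 4 had Adora2a only. Of the 5 genes Drd1, Drd2, Ppp1r1b, Rgs9 and Adora2a, 3 or more were found in 39 frozen nuclei, 25 of them with over 8000 genes, and in 3 FFPE nuclei, all 3 with over 8000 genes. In FFPE batch 1 the count was 0.

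A few nuclei, chosen after their values were seen, show what the members look like in single profiles. A frozen nucleus of plate 2 with 1601701 counts and 7301 genes held Drd1 at 310 CPM, Ppp1r1b at 983, Rgs9 at 2666, Pde10a at 3908, Adcy5 at 2585 and Foxp1 at 2078 CPM. It also held the GABA synthesis genes Gad1 (654 CPM) and Gad2 (991) and Bcl11b, a spiny neuron transcription factor (699), and had no Drd2, Adora2a or Slc17a7, the glutamate transporter of cortical excitatory neurons. Penk and Meis2, both among the other spiny neuron genes, were at 0 as well. A pair of frozen nuclei from plates 2 and 1 (r = 0.966) held Drd1 at 191 and 83.3 CPM, Ppp1r1b at 919 and 1508, Rgs9 at 913 and 813, and Bcl11b at 913 and 873, with Gad2 at 774 and 529 but Adcy5 only at 6.24 and 16.7 CPM and Penk and Meis2 at 0. Another frozen pair (r = 0.969) had no Drd1 or Drd2 but Rgs9 at 3151 and 3448 CPM, Ppp1r1b at 921 and 1201 and Foxp1 at 4932 and 4131. In that pair Gnal, a G-protein subunit of the striatum, stood at 2597 and 2159 CPM and Gad2 at 455 and 248, but Bcl11b was at 1.94 and 5.25 CPM, Pde1b at 2.91 and 0.876, and Gad1 and Penk at 0, so this pair too lacked part of the set. The tissue labelled cortex thus gave frozen nuclei with several spiny neuron genes in 1 profile.

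Among FFPE nuclei, 1 of batch 1 (156078 counts, 1766 genes) held Ppp1r1b at 6779 CPM, Adora2a at 1730 CPM (270 counts), Pde10a at 5619, Adcy5 at 1281 and Foxp1 at 173 CPM, with Drd1, Drd2 and Rgs9 at 0. It carried 95.1% of all Ppp1r1b counts and 99.6% of all Adora2a counts of that batch. A trio of whole-series FFPE nuclei (r 0.876 to 0.897) held Rgs9 at 8053 to 9144 CPM, Ppp1r1b at 3688 to 4719 and Pde10a at 4726 to 5595, with Drd1, Drd2, Adora2a, Adcy5, Gad1, Gad2 and Slc17a7 at 0 and Foxp1 at 0 in 2 nuclei and 25.1 CPM in the other. Bcl11b, Foxp2, Penk, Meis2, Gnal, Gng7 and Pde1b were at 0 in all 3, so this trio too lacked part of the set. Counting nuclei with Ppp1r1b, Rgs9 and Pde10a each at 100 CPM or more and no Slc17a7 count gave 9 FFPE nuclei in 5 sets linked at 0.6 (7 at 0.8) and 8 frozen nuclei in 4 sets (6 at 0.8). In 3 of these FFPE and 2 of these frozen nuclei at least 1 of the 3 genes rested on 3 counts or fewer, and 1 FFPE nucleus with 9838 counts had a profile like that of deeper nuclei (r 0.814 to 0.818) with Slc17a7. Before Slc17a7 was considered, 13 FFPE and 18 frozen nuclei had the 3 genes at that level, and all 10 frozen nuclei left out for Slc17a7 had over 8000 genes. The cerebellar genes Gabra6 or Cbln1 had counts in 9 of the 9 FFPE nuclei and in 1 of the 8 frozen nuclei. Over all plate nuclei the median summed level of 6 cerebellar granule markers was 584 CPM in FFPE and 0 in frozen nuclei. That count is thus no trait of the chosen nuclei alone, and the part of these genes was not tested. Foxp1 could also be high without most of the others: its highest frozen pair (14430 and 10279 CPM) held Adcy5 at 726 and 1101 CPM and no other member.

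The droplet library held 7031 FFPE nuclei in 12 classes named by the authors, with a median of 325 unique molecular identifiers (UMIs) per nucleus, and no class was named for spiny or inhibitory neurons. In all nuclei there were 16 UMIs of Drd1, 4 of Drd2, 8 of Adora2a, 148 of Adcy5, 247 of Ppp1r1b, 78 of Rgs9, 1917 of Pde10a and 628 of Foxp1. The shares of nuclei with a UMI were 0.228%, 0.0569%, 0.114%, 2.05%, 3.34%, 1.10%, 22.2% and 8.22% in that order. With 1 library the class differences below have no test, and intervals cover counting error only.

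The class ExNeuron2 (1098 nuclei, median 296 UMIs) had the highest level of 3 of the 5 members with enough UMIs to rank, over the 10 classes of at least 100 nuclei. Over all 10540 genes with at least 20 UMIs in these classes, ExNeuron2 was highest for 4.30%. That share ran from 3.56% in ExNeuron1 (2121 nuclei) to 18.8% in endothelial nuclei (174 nuclei). Ppp1r1b stood in ExNeuron2 at 220 CPM (173 to 275) against 94.8 over all nuclei, Rgs9 at 63.6 CPM (39.9 to 96.4) against 29.9, and Adcy5 at 95.5 CPM (65.7 to 134) against 56.8. By share of nuclei, ExNeuron4 came next and close for Rgs9 (1.91% in ExNeuron2 and 1.54%) and Adcy5 (2.82% and 2.65%). Ppp1r1b had a UMI in 6.56% of ExNeuron2 nuclei (5.17% to 8.19%), and in 2.15% of microglia (median 285 UMIs) and 4.60% of endothelial nuclei (median 301.5 UMIs), classes that should lack it. The microglial interval (0.262% to 7.55%) and the endothelial interval (2.01% to 8.86%) overlap the ExNeuron2 value, as those classes held 93 and 174 nuclei. Counting only nuclei with at least 2 Ppp1r1b UMIs, the share was 0.273% in ExNeuron2 (3 nuclei), below 0.575% in endothelial nuclei and 0.465% in oligodendrocyte precursors (1 nucleus each). ExNeuron2 was also highest for 8 of the 24 other spiny neuron genes ranked, among them Gnal, Pde1b, Cnr1, Rasd2, Foxp2, Penk and Scn4b. The rest led elsewhere. Endothelial nuclei led for Ptpn5, Ebf1 and Tac1, ExNeuron4 for Rasgrp2, Pdyn and Kcnip2, and ExNeuron5 for Prkar2b, Arpp21 and Bcl11b. Oligodendrocyte precursors led for Gnb5, Pde7b and Rarb, ExNeuron6 for Meis2 and Actn2, astrocytes for Rgs7bp, and oligodendrocytes for Gng7. Slc17a7 was present in ExNeuron2 too, at 515 CPM against 729 in ExNeuron1, and Gad2 stood at 130 CPM there against 281 in ExNeuron4. Gabra6, a cerebellar granule gene, had UMIs in every class, from 4.01% of astrocytes to 11.9% of ExNeuron3 nuclei.

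**Figure D5:**
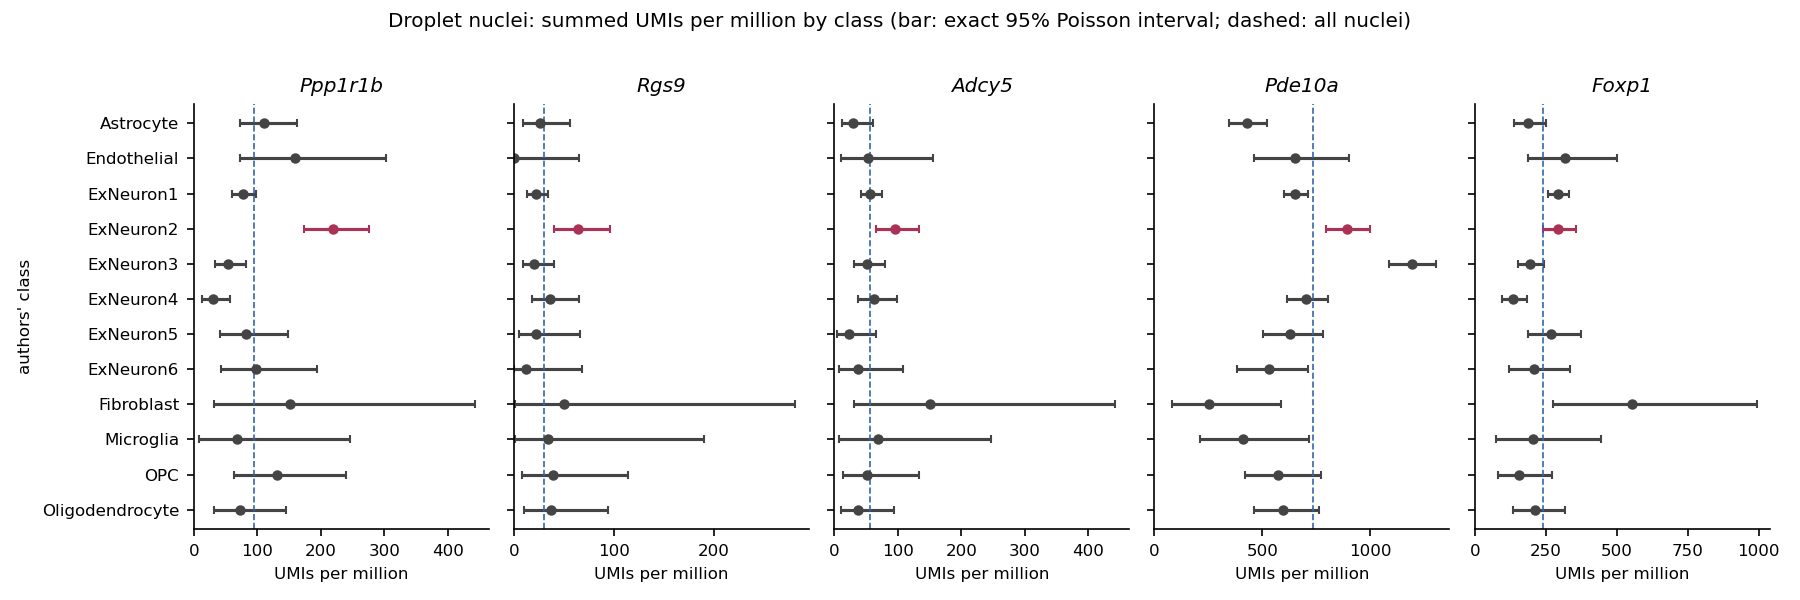
Droplet level of 5 of the genes by the authors' class (summed UMIs as CPM), with exact Poisson 95% intervals and a dashed line at the level over all nuclei. Ppp1r1b is highest in ExNeuron2 (220 CPM) and Pde10a in ExNeuron3 (1193 CPM), and the intervals widen in the small classes.

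Pde10a and Foxp1 had other patterns. Pde10a was highest in ExNeuron3, at 1193 CPM (1087 to 1307) and 32.7% of nuclei, against 894 CPM and 23.5% in ExNeuron2 and 427 CPM and 13.3% in astrocytes, with 10.8% in microglia. Foxp1 was spread over classes, at 318 CPM in endothelial nuclei (10.3%), 292 CPM in ExNeuron1 (10.6%) and 136 CPM in ExNeuron4 (5.45%), and at 555 CPM in the 47 fibroblast nuclei (23.4%). With each nucleus thinned to 300 UMIs, the ExNeuron2 share was 5.17% for Ppp1r1b, still the highest among the classes of at least 100 nuclei; 2 of 37 microglia gave 5.41%. The thinned Rgs9 share was 1.53% in ExNeuron2 and 2.22% in oligodendrocytes, so the order of these classes changed with thinning. Drd2 had 3 of its 4 UMIs in ExNeuron4. Of the 5 genes Drd1, Drd2, Ppp1r1b, Rgs9 and Adora2a, 2 or more were in 6 of 7031 nuclei, 2 of these in ExNeuron2. With Pde10a as the sixth gene, 2 or more were in 97 nuclei, 31 of these in ExNeuron2, and 3 or more in 4 nuclei.

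The genes whose levels ran most like each member were named over the 10 droplet classes and over the 12 SMART-Seq2 wells, by Pearson's r of log2 levels. Points share a library in the first case and tissue groups in the second, so r is a description. Over the droplet classes, the closest genes were Gm26561 (0.89) and Nufip2 (0.88) for Ppp1r1b, Sppl3 (0.92) and Ephb1 (0.89) for Rgs9, and Tenm1 (0.98) and Cadps2 (0.94) for Pde10a. For Adcy5 they were Ckmt1 and Actn4 (both 0.78), and for Foxp1 March6 (0.88) and Pld3 (0.83). Over the wells they were Tma16 (0.93) and Ntsr1 (0.89) for Drd1, Churc1 (0.95) for Ppp1r1b, Dock3 (0.92) and Ipo5 (0.89) for Rgs9, and Cacnb4 (0.95) and Tmem178b (0.86) for Pde10a. For Adcy5 they were Atrnl1 and Sorcs3 (both 0.94), and for Foxp1 Tnip2 (0.93) and Zfp697 (0.87). No gene named here was shared between the 2 sets for any member.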

How the data were processed

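The deposited bulk and plate tables hold raw counts per gene, and the droplet table holds raw UMI counts, per the file headers and the values (whole numbers). Builds hg19 and mm10 are named in the submitters' processing notes; the droplet gene table names the reference mm10_premrna. The aligner and counter were not given in the sources used here, nor whether SCRB-seq tags were collapsed by UMI. Only mouse genes of the SCRB-seq table were used. Bulk wells were fitted with edgeR 4.0.16 (R 4.3.3; TMM, filterByExpr, quasi-likelihood test, Benjamini-Hochberg over all tested genes, threshold 0.05), all groups in 1 fit for FFPE minus frozen and FFPE wells only for the methods; DESeq2 1.42.0 was an alternative. The fits were tested on simulated data. Single nuclei were given as shares and pooled CPM, with exact binomial or Poisson 95% intervals (scipy 1.17.1) and ratios of pooled counts with exact conditional intervals, all covering counting error only. Poisson and ratio intervals treat each count as independent, which need not hold for reads that were not collapsed by UMI. A count of 0 was set at a floor of 3 counts. No doublet caller was run; results without nuclei of over 8000 genes, or without the 5% of droplet nuclei with most UMIs, stand in its place. Classes are the authors' annotation. All 8 genes are named; other spiny neuron genes are named where called, and genes most like a member are the 2 with the highest r; some genes that these rules name are not reported here. The genes and lists were chosen with earlier results of these data known, and some alternatives were added after seeing the data. Positions are from GENCODE M21 and promoters from RefSeq GRCm38.p6. Bulk depth ran from 7512 to 942966 counts a well, and 6 of the 8 genes fell under the filter in SCRB-seq.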

Additional observations from a re-analysis of the deposited data

Results flagged for a closer look

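In 3 of 16 groups of 8 SCRB-seq wells, the highest well stood far from the other 7; chance alone marks about 1 in 20 groups of normally distributed values, which CPM from few counts need not be. Foxp1 reached 4526 CPM in a mineral oil well of 10 nuclei, where the next well stood at 2477, on 34 counts of Foxp1 in the well with the lowest total (7512). Pde10a reached 975 CPM in a mineral oil well of 10 nuclei, where the next stood at 133 (16 counts and 1 count, with 5 of the 8 wells at 0), and 1187 CPM in a room-temperature xylene well of 10 nuclei, where the next stood at 458. All 3 are wells of 10 nuclei, the smallest pools. For 7 genes the FFPE difference was compared between wells of 10 and of 100 nuclei: Rgs7bp was called, where 18.9% of the 1478 tested genes were, with a log2 difference of differences of -2.04 (SE 0.66, adjusted p = 0.0240, edgeR). The FFPE level of Rgs7bp relative to frozen was thus lower in the smaller pools.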

How the results depend on the processing

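In SCRB-seq, 2 members were called for FFPE against frozen, and the count was 1 with DESeq2 size factors (66.5% of all genes called), 1 by DESeq2's Wald test (67.7%), 1 with only wells of 100 nuclei (45.9%; Foxp1 stood at 0.23, adjusted p = 0.433) and 5 with no filter on low counts (25.2%). Without the filter the methods gave 1 called member for mineral oil against heated xylene, 2 for heated against room-temperature xylene and 1 for mineral oil against room-temperature xylene, against 0 with it. In SMART-Seq2 the count was 0, and 1 by DESeq2's Wald test (7.05% of all genes called); leaving out each well in turn gave 0 to 1, with 1 each when the 10-nuclei well of room-temperature xylene (Pde10a; 4.58% of genes called) or the 50-nuclei well of mineral oil (Adcy5; 3.50%) was left out. Foxp1 for FFPE minus frozen reversed to -0.078 with size factors and -0.076 by the Wald test. Meis2 reversed to -0.35 with size factors, -0.37 by the Wald test, -0.77 in wells of 10 nuclei, -0.18 without the heated xylene wells and -0.42 without the room-temperature xylene wells. Uncalled method differences reversed for Pde10a with only wells of 100 nuclei (0.30 for mineral oil and 0.014 for heated xylene, each against room-temperature xylene) and for Foxp1 with no filter (-0.10, mineral oil against room-temperature xylene). The cause was not tested. Over all genes, the calls for FFPE against frozen were 857 in SCRB-seq (478 with only wells of 10 nuclei, where 783 genes were tested) and 372 in SMART-Seq2 (641 by the Wald test; 162 to 187 when a frozen well was left out). Of 219 single-gene values in the bulk fits, 198 kept their direction and side of the threshold, 7 lost the call, 4 gained it and 10 reversed; 60 of 152 plate shares and 18 of 45 droplet shares moved beyond their intervals. For mineral oil against heated xylene, heated against room-temperature xylene and mineral oil against room-temperature xylene, SCRB-seq called 92, 21 and 111 genes; with the number of nuclei as a covariate it called 143, 62 and 201, and over all alternatives with the filter 70 to 256, 14 to 117 and 97 to 251. That covariate gave 882 calls for FFPE against frozen in SCRB-seq and 429 in SMART-Seq2, and changed no count of called members. With all wells, the receptor genes fell under the filter on low counts in both bulk assays; in SMART-Seq2, Drd1 passed it in 10 of the fits that left out 1 well and was called in 0 of them (log2 -2.99 to -1.94, adjusted p = 0.520 to 0.861). No paired analysis was possible because the labels give no replicate numbers shared between groups; the number of nuclei names the pool size, not a replicate.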
